A study of Mus musculus with 52 samples.

Results

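The comparison is of T cells grown on an adhesive, chemokine-bearing surface with T cells grown in plain wells, after activation by dendritic cells (DCs), in the libraries of day 3 whose titles carry DCs30. It takes 8 of the 52 libraries of the series: 5 from coated wells (M numbers 1 to 5) and 3 from uncoated wells (M numbers 1, 4 and 5). The coated group held CD8+ T cells of OT-I mice at day 3 of culture with peptide-loaded DCs, in wells precoated with CCL21 and ICAM1. The uncoated group held the same kind of cells at the same day, with the same DCs, in wells without the coating. Every group of the series carries the transgenic OT-I receptor, which recognises a peptide of ovalbumin. The T cells were magnetically selected from spleen, the DCs were selected by CD11c from spleens of C57BL/6 mice, and the ages of the mice are not in the labels. The series also holds day 3 libraries titled DCs120, which were kept apart here, bead-activated cells of day 3 and day 7, DC-activated cells of day 4 titled DCs120, and freshly isolated cells. The labels do not say what 30 and 120 count, nor that an M number is a separate animal, so the p-values measure the spread between these libraries, which may be partly technical. T cells and DCs shared a well and no step that removes DCs before RNA extraction is in the labels.

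CCL21 is a chemokine of lymph nodes that acts through the receptor CCR7 and guides naive T cells and mature DCs. ICAM1 is the ligand of the integrin LFA-1, a pair of the chains Itgal and Itgb2, which binds firmly only after signals from the T cell receptor or a chemokine receptor switch it on through the small GTPase Rap1. A CD8+ T cell that meets its peptide on a DC divides, makes the cytokine interferon gamma and granzymes, and lowers the genes that mark naive and memory cells. The series asks what the 2 immobilised proteins do to division and killing capacity of DC-activated and bead-activated cells.

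Messenger RNA was counted at transcript 3′ ends by bulk MARS-seq. Coated libraries held 1037936 (M number 3) to 2876685 counts (M number 1), and uncoated ones 1411950 (M number 4) to 1955207 (M number 1). None of the 13 pairs of libraries of 1 group was identical. The CD8 T cell markers were present in all 8 libraries, with Cd8a at 401.7 to 691.1 CPM (counts scaled to the library total) in coated and 429.5 to 692.8 CPM in uncoated cells, while Cd4 was at 0 in every one. On the main axis of variation among the 1000 most variable genes, which held 30.6% of the variance, the groups were not separated: coated M numbers 2 and 3 and uncoated M number 4 lay together at its positive end. These libraries also held the fewest counts of the 8 (1519549, 1037936 and 1411950), and the part of depth in this axis was not tested. Uncoated M number 4 also stood apart on the second component (18.4%) and held the most transcripts of red cell and MHC class II genes, so results that rest on it are also given without it.

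Of 9092 genes tested with edgeR's quasi-likelihood test, 22 passed an adjusted p of 0.05, or 0.242%: 5 rose (0.055%) and 17 fell (0.187%). The genes that rose were Ttc39c, Tnfrsf13b, Mt2, Crybg1 and Serpine2. Those that fell included the Rap1 activator Rasgrp2, the integrin chain Itgb7, the cell death gene Bcl2l11 and the growth factor gene Csf1. The 5 coated and 3 uncoated libraries did not overlap for any of the 22, as for 6.38% of all tested genes, of which 2.3% of tested genes were higher and 4.08% lower on the coating. The median log2 fold change of all tested genes was 0.01, and 731 genes had an unadjusted p under 0.05. Of the 9092 genes, 4787 had a positive log2 fold change (52.7%) and 4305 a negative one.

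**Figure D1:**
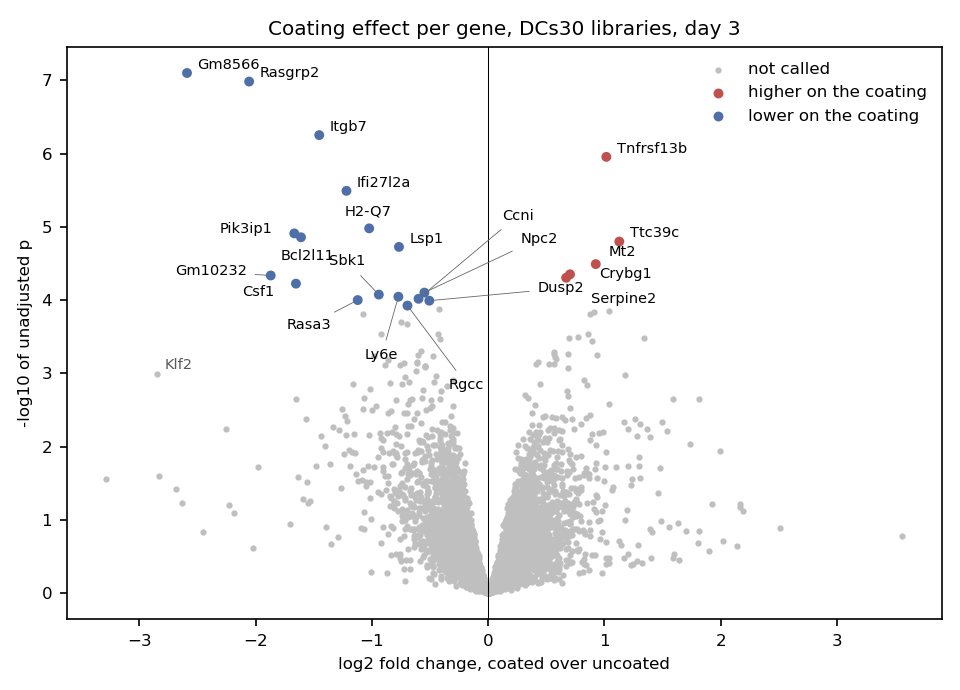
Each point is 1 of the 9092 tested genes, with its log2 fold change (coated over uncoated, positive when higher on the coating) on the x axis and -log10 of its unadjusted p from edgeR on the y axis. The 22 genes that passed the adjusted threshold are coloured and named, 5 to the right and 17 to the left; Klf2 had a log2 fold change of -2.85 without passing it.

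How many genes passed depended on the test and on single libraries. DESeq2's Wald test called 46 genes, and a fit with M number as a replicate block 142, with all 22 among them in both. Without coated M numbers 1, 2, 3, 4 or 5 in turn, 40, 20, 13, 6 and 6 genes passed, and without uncoated M numbers 1, 4 or 5, 3, 9 and 5. Of the 22 genes, Rasgrp2, Itgb7 and the pseudogene Gm8566 passed in all 8 of these fits, and Tnfrsf13b and Ifi27l2a in every one but that without uncoated M number 1 (adjusted p = 0.0548 for Tnfrsf13b and 0.102 for Ifi27l2a). The other 17 lost the call in 4 to 7 of the 8 fits. For each of the 22 the direction was the same in every one of these fits.

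Some genes described below missed the threshold with all 8 libraries and passed it without 1. Without coated M number 1, Gzmb (log2 0.76, adjusted p = 0.04), Ifng (0.62, adjusted p = 0.04), Cd80 (1.02, adjusted p = 0.0459), Batf3 (0.96, adjusted p = 0.0246), Cdkn1a (1.13, adjusted p = 0.00289) and Egln3 (1.00, adjusted p = 0.0296) passed as higher on the coating. In the same fit Cd160 (-1.14, adjusted p = 0.0391), Gbp2 (-1.03, adjusted p = 0.0246), Il16 (-0.71, adjusted p = 0.0385) and Ighm (-0.44, adjusted p = 0.0424) passed as lower. Without coated M number 2, Gzmb (0.96, adjusted p = 0.00181), Cdkn1a (0.91, adjusted p = 0.0062) and Ccr4 (1.44, adjusted p = 0.0402) passed, and without uncoated M number 4, Klf2 (-2.15, adjusted p = 0.0359) and Cd160 (-1.26, adjusted p = 0.049).

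Among the genes that switch integrins on, the one for the Rap1 exchange factor CalDAG-GEFI, Rasgrp2, changed most. It had 9.46, 6.39, 7.06, 6.21 and 7.18 CPM in coated M numbers 1 to 5, against 36 CPM in M number 1, 31.7 in 4 and 25.9 in 5 of the uncoated cells. The coated libraries all lay below the lowest uncoated one. Rasgrp2, at chr19:6399340-6415216 on the plus strand (GENCODE vM21, GRCm38), fell by 2.05 on the log2 scale (SE 0.22, adjusted p = 0.000474, edgeR). Rasa3, which encodes a protein that shuts off Ras and Rap1, had 18.2, 17.9, 18.5, 14.6 and 8.97 CPM in coated M numbers 1 to 5, against 33.5 (M number 1), 37.2 (4) and 31.5 CPM (5) in uncoated cells. The coated value of M number 5 was the lowest and the groups did not overlap. Rasa3 fell by 1.12 (SE 0.21, adjusted p = 0.0443), and the call was lost in 6 of the 8 fits that leave out 1 library, with an adjusted p up to 0.251 without uncoated M number 1.

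The rest of the pathway between receptor and integrin showed small differences. Of 26 tested genes of integrin activation, 2 fell (Rasgrp2 and Rasa3) and 0 rose, against 17 and 5 of 9092 over all genes. Of the 26, 21 had a negative log2 fold change, against 4305 of 9092 over all genes. Their median was -0.09, against 0.01 over all genes. Rap1a, one of the Rap1 genes, averaged 132 ± 22.5 CPM in coated cells and 184 ± 39.2 CPM in uncoated cells (SD, n = 5 and 3; log2 -0.45, adjusted p = 0.418). Rap1b had a log2 fold change of -0.07 (adjusted p = 0.943). Talin (Tln1) and kindlin-3 (Fermt3), which bind integrin tails, had -0.01 (adjusted p = 0.992) and 0.05 (adjusted p = 0.961), and Rasgrp1, the related exchange factor for Ras, 0.02 (adjusted p = 0.992).

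Among integrins and other adhesion genes, Itgb7 fell. It encodes the beta 7 chain, which pairs with alpha 4 or alpha E and serves homing to and retention in the gut. Itgb7 had 42.7, 42.2, 37.1, 31.1 and 23.3 CPM in coated M numbers 1 to 5, against 109 CPM in M number 1, 82.7 in 4 and 98.2 in 5 of the uncoated cells. The highest coated library stood well under the lowest uncoated one, and Itgb7 (chr15:102215995-102231944, minus strand) fell by 1.45 on the log2 scale (SE 0.18, adjusted p = 0.0017). Its partner genes Itga4 and Itgae did not reach the filter on low counts. Of 14 tested integrins, selectins and ligands, 1 fell and 0 rose, with a median log2 fold change of -0.12.

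The receptor chains of ICAM1 itself gave no call. Itgal had 193.3 to 270.1 CPM in coated and 207.8 to 225.3 CPM in uncoated libraries, and the groups overlapped. Its log2 fold change was 0.04 with a 95% interval from -0.22 to 0.30 (adjusted p = 0.971), and its sign turned without coated M number 3 (-0.06). Itgb2 had 143.7 to 171.3 CPM in coated and 176.8 to 181.1 CPM in uncoated libraries, with a log2 fold change of -0.16 and an interval from -0.37 to 0.05 (adjusted p = 0.784). Icam1, which T cells also make, had 0.44 (adjusted p = 0.739). Lsp1, an actin-binding protein of leukocytes, fell by 0.77 (SE 0.13, adjusted p = 0.0171), with 131.4 to 181.8 CPM in coated against 249.7 to 309.7 CPM in uncoated cells. The Lsp1 call was lost in 4 of the 8 fits that leave out 1 library, with an adjusted p up to 0.251.

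Ccr7, the receptor of CCL21, was slightly lower on the coating without passing the test. It had 296.3, 303.4, 334.5, 290.1 and 286.2 CPM in coated M numbers 1 to 5, against 349.7 (M number 1), 366.1 (4) and 384.5 CPM (5) in uncoated cells. The groups did not overlap, but the log2 fold change was only -0.26 (95% interval -0.46 to -0.06, adjusted p = 0.432). Of 19 tested chemokine and sphingosine phosphate receptors and their G protein regulators 0 rose and 0 fell. Ccr4, a receptor of CCL17 and CCL22, had 17.3 to 34.2 CPM in coated and 5.52 to 13.7 CPM in uncoated libraries (log2 1.34, SE 0.29, adjusted p = 0.085). Cxcr3, the receptor of interferon-induced chemokines, had a log2 fold change of -0.69 (adjusted p = 0.348).

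**Figure D2:**
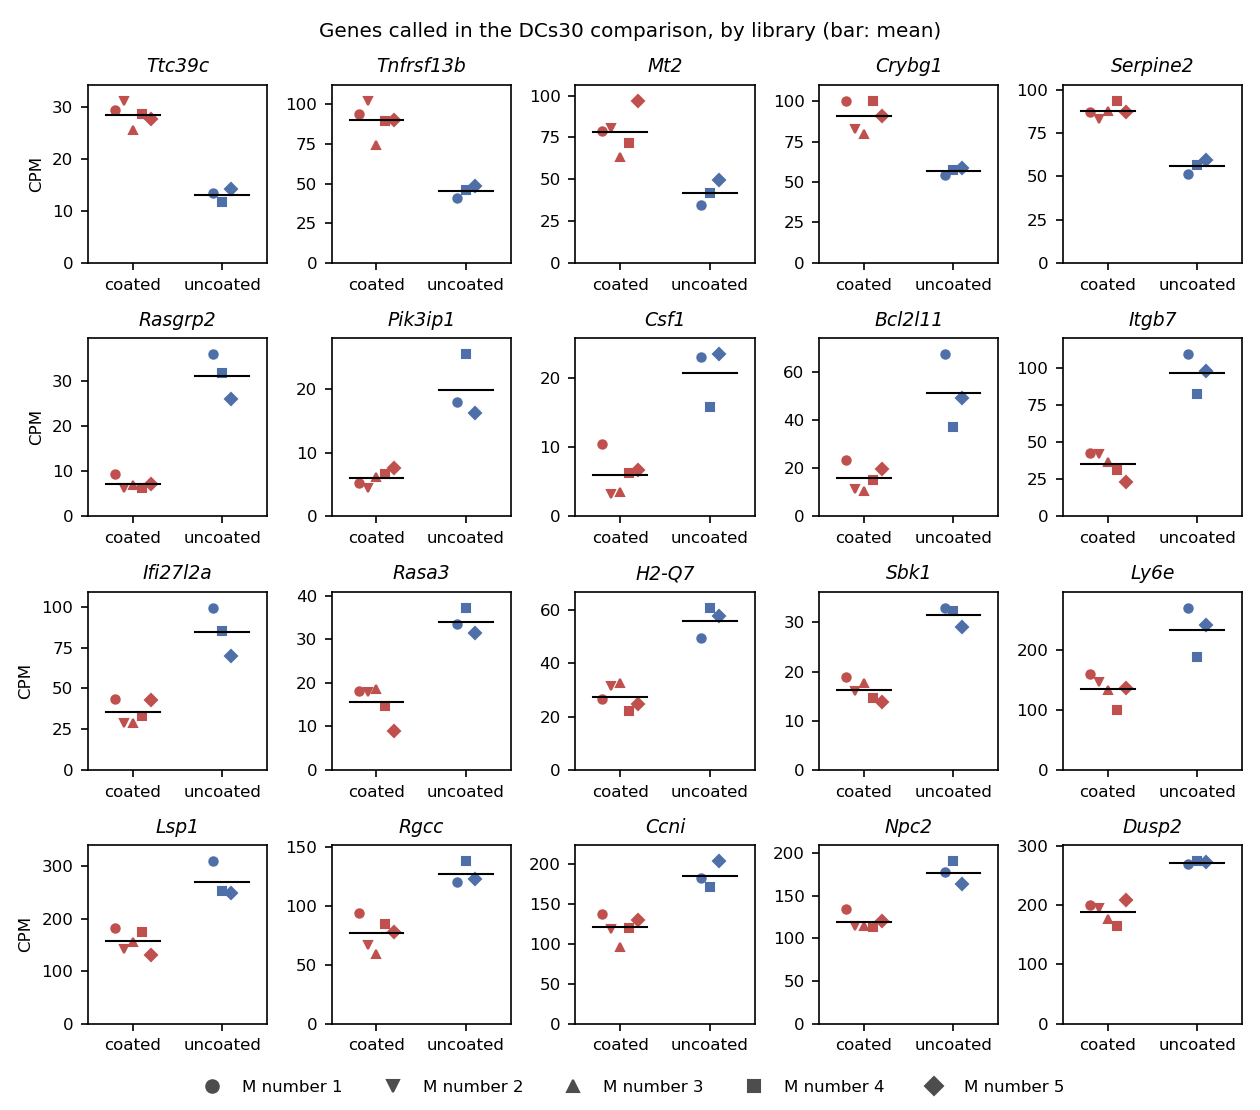
Expression in CPM (y axis, from 0) of the 20 named genes that passed the test, in the 5 coated (red, left) and 3 uncoated (blue, right) libraries, with the shape giving the M number and the bar the group mean. In every panel the coated points lie wholly above (top row) or wholly below (the other rows) the uncoated ones.

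The promoter sequences of 4 of the genes are shown because Rasgrp2 and Itgb7 were called in every fit, and because Bcl2l11 and Mt2 are textbook targets of the motifs searched. Each is RefSeq's window from 250 bases before to 50 bases after an annotated start, in GRCm38.p6, written in the gene's direction. Capitals mark matches, on either strand, to TGTTTAC (the FOXO core), TGANTCA (AP-1), TGCNCNC or the interferon-stimulated response element. TGCNCNC is looser than the metal response element core, TGCRCNC with R for A or G, so a capital stretch may miss that core. The windows lie at chr19:6399625-6399924 (plus strand, Rasgrp2, 1 of 2 annotated starts), chr15:102231886-102232185 (minus strand, Itgb7), chr2:128125788-128126087 (plus strand, Bcl2l11, 1 of 2 starts) and chr8:94172368-94172667 (plus strand, Mt2).
Rasgrp2: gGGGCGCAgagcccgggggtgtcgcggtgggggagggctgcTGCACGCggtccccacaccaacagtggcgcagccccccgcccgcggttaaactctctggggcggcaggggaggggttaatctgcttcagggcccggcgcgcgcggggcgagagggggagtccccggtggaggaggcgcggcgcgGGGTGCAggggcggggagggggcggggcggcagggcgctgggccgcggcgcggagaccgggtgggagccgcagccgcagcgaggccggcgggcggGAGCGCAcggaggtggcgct
Itgb7: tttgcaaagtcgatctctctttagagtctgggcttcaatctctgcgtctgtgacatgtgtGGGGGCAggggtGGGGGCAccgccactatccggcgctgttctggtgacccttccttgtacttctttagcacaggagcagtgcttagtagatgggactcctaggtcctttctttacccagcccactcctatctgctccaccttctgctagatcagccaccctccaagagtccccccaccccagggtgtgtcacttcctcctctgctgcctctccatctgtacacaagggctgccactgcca
Bcl2l11: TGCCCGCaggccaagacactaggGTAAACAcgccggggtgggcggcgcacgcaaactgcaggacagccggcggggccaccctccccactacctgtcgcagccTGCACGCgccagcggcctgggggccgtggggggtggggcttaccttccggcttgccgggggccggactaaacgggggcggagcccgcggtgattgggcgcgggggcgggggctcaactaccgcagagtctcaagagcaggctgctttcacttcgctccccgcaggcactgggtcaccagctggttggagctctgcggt
Mt2: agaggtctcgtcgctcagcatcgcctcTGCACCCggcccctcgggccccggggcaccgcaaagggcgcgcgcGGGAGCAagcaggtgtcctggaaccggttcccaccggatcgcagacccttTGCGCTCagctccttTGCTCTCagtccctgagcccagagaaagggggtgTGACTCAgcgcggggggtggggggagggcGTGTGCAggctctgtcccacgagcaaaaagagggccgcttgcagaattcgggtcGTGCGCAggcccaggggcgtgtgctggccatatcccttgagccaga
The Mt2 window held 6 matches to TGCNCNC, a number reached by 0.225% of the 32851 windows of the table. Of these, TGCTCTC and GGGAGCA, which reads TGCTCCC on the other strand, miss the stricter core. The window also held 1 match to AP-1, which 7.81% of windows hold. The printed Bcl2l11 window held 1 match to the FOXO core, which 3.65% of windows hold. The window of the other Bcl2l11 start (chr2:128127325-128127624) held none to it, nor did those of Rasgrp2 and Itgb7. A single match to TGCNCNC is common: 51% of all windows hold at least 1. Of the 15 called genes with a window in the table, the FOXO core was found for Bcl2l11 and Ccni only, and the interferon-stimulated response element, found in 3.44% of all windows, for Crybg1 only. A match describes the letters and not a bound site.

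Of 16 tested BCL2 family and caspase genes 1 fell and 0 rose, with a median of -0.05. The one that fell, Bcl2l11, encodes BIM, which triggers the mitochondrial pathway of cell death. It had 23.5, 11.5, 10.6, 15.1 and 19.7 CPM in coated M numbers 1 to 5, against 67.4 (M number 1), 37.2 (4) and 49.3 CPM (5) in uncoated cells. The groups were apart, with coated M number 1 the highest of its group as uncoated M number 1 was of its own. Bcl2l11 (chr2:128126038-128162547, plus strand) fell by 1.61 on the log2 scale (SE 0.24, adjusted p = 0.0158); 4 of the 8 fits that leave out 1 library lost the call, with an adjusted p up to 0.165. The death-opposing Bcl2 had a log2 fold change of 0.39 (adjusted p = 0.827) and Mcl1 -0.25 (adjusted p = 0.666), and the death-promoting Bbc3 -0.01 (adjusted p = 0.995).

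Pik3ip1, which restrains the kinase PI3K in T cells, had 5.25, 4.47, 6.18, 6.65 and 7.63 CPM in coated M numbers 1 to 5, against 18 (M number 1), 25.5 (4) and 16.3 CPM (5) in uncoated cells. The uncoated M number 4 was the highest, and the lowest uncoated library still exceeded every coated one. Pik3ip1 fell by 1.67 (SE 0.26, adjusted p = 0.0158) and kept its call in 4 of the 8 fits that leave out 1 library (adjusted p up to 0.102). Dusp2, an inducible phosphatase that switches off MAP kinases, had 165.4 to 207.7 CPM in coated and 269.2 to 273.7 CPM in uncoated libraries. Dusp2 fell by 0.51 (SE 0.10, adjusted p = 0.0443). It was called in 1 of the 8 fits that leave out 1 library, the one without coated M number 1 (adjusted p up to 0.251).

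Other genes induced by the T cell receptor did not pass. Of 27 tested, Dusp2 fell and 0 rose, with a median of -0.18. A negative log2 fold change was found for 21 of them, against 4305 of 9092 over all genes. Nr4a1, an early receptor-induced transcription factor, had 43 to 83 CPM in coated and 78.6 to 112.9 CPM in uncoated libraries (log2 -0.51, adjusted p = 0.424). Fos had 3.14 to 6.65 CPM in coated and 6.61 to 27 CPM in uncoated libraries (log2 -1.65, adjusted p = 0.227). Of 15 tested activation and costimulation genes none passed, and the median was 0.18. Il2ra, the high-affinity chain of the interleukin 2 receptor, had 127.7 to 178.7 CPM in coated and 95.4 to 111.4 CPM in uncoated libraries (log2 0.57, SE 0.13, adjusted p = 0.117). Cd80, a costimulatory ligand that activated T cells also carry, had 20.3 to 29.3 CPM in coated and 11.7 to 14.5 CPM in uncoated libraries (log2 0.94, SE 0.22, adjusted p = 0.117). For Il2ra and Cd80 no coated library overlapped the uncoated range.

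Tnfrsf13b, which encodes TACI, a receptor for the cytokines BAFF and APRIL best known from B cells, rose. It had 93.9, 102, 74.1, 89.2 and 90.2 CPM in coated M numbers 1 to 5, against 41 (M number 1), 46.2 (4) and 48.3 CPM (5) in uncoated cells. Coated M number 3 was the lowest of its group and still exceeded all uncoated libraries. The log2 fold change was 1.02 (SE 0.13, adjusted p = 0.00252). The BAFF receptor Tnfrsf13c had a log2 fold change of -0.27 (adjusted p = 0.832). The summed B cell markers were lower on the coating, at 443.9 to 492.8 CPM in coated and 615.4 to 685.8 CPM in uncoated libraries, nearly all of it Ighm. The B cell gene Ms4a1 was at 0 in all 5 coated libraries and at most at 1.38 CPM in the uncoated ones.

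Of 21 tested genes of naive and memory T cells, 0 rose and 0 fell, with a median of -0.43, against 0.01 over all genes. A negative log2 fold change was found for 17 of them, against 4305 of 9092 over all genes. Transcripts of other cells stood out in 1 uncoated library: M number 4 held 524.6 CPM of MHC class II and 723.9 CPM of erythroid genes, and their part in the result was not tested. Without that library 16 of the 21 genes had a negative log2 fold change, against 4511 of 9357 over all genes. Their median was -0.37, against 0.01 over all genes, and 1 (Klf2) fell. Klf2, a transcription factor of quiescence that drives S1pr1, had 15.1, 6.39, 5.3, 8.43 and 14.8 CPM in coated M numbers 1 to 5, against 59.4 (M number 1), 144 (4) and 36.1 CPM (5) in uncoated cells. The groups were apart, but uncoated M number 4 stood far above the others, and the log2 fold change of -2.85 (SE 0.53) had an adjusted p of 0.146. Without that library Klf2 passed, as given above. For its target S1pr1, the receptor for lymph node exit, the groups overlapped. S1pr1 had -0.63 (adjusted p = 0.846), which became 0.14 without uncoated M number 4. Tcf7, which encodes the quiescence and memory factor TCF1, had -0.48 (adjusted p = 0.356), and Il7r, the interleukin 7 receptor chain, 0.60 (adjusted p = 0.895). The members of the list with the smallest p were the transcription factor genes Myb, with 28.4 to 39.2 CPM in coated and 52.5 to 62.1 CPM in uncoated libraries (log2 -0.69, adjusted p = 0.0668), and Id3, with 151.8 to 178.6 CPM in coated and 219.2 to 232.4 CPM in uncoated libraries (log2 -0.43, adjusted p = 0.0839). Neither gene's groups overlapped. Nsg2 did not reach the filter.

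**Figure D3:**
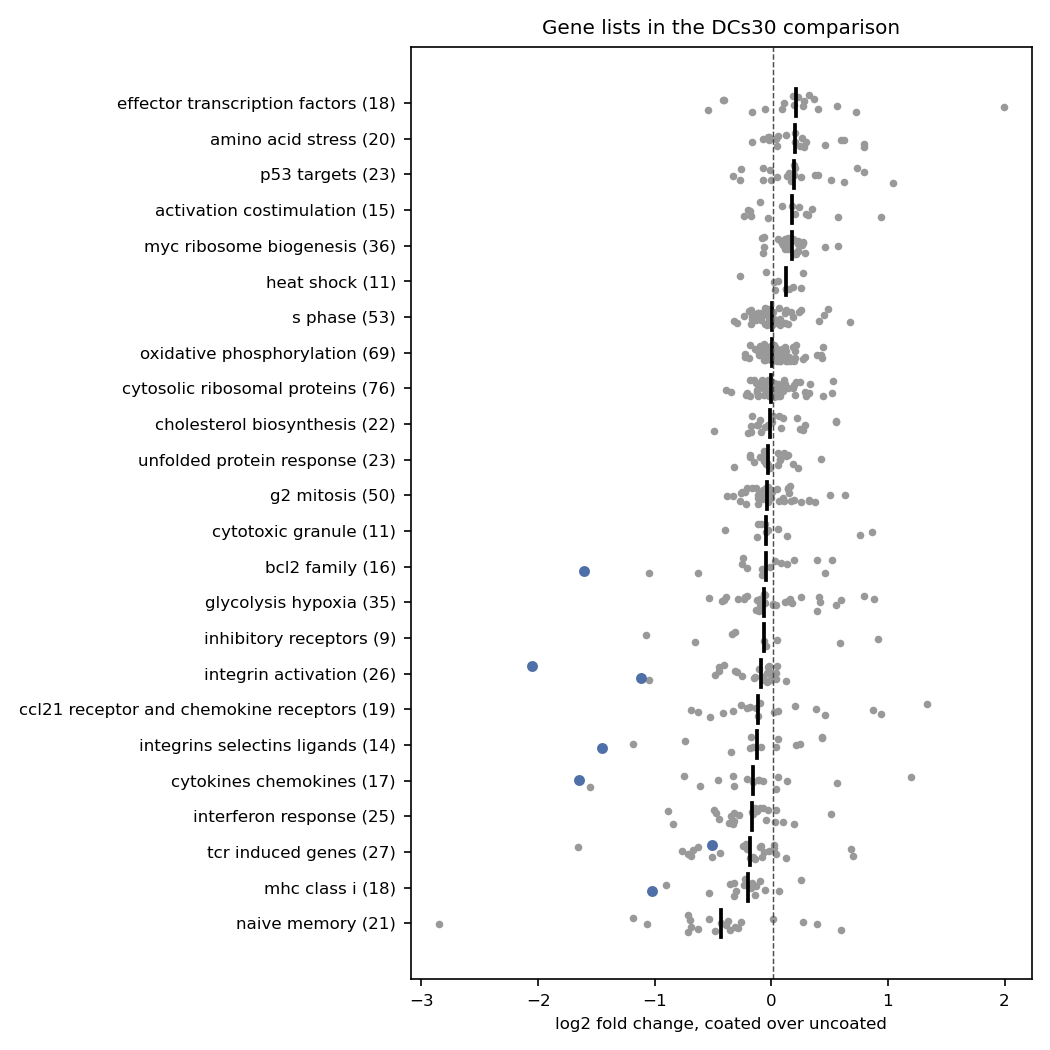
Log2 fold change (coated over uncoated, x axis) of every tested gene in the 24 function lists (y axis, number of tested genes in brackets, ordered by median). Black bars are list medians, blue points the 7 called genes that belong to a list, and the dashed line the median of all tested genes; naive and memory genes have the lowest median, at -0.43.

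Of 11 tested cytotoxic granule genes 0 rose and 0 fell; 4 had a positive and 7 a negative log2 fold change, with a median of -0.04. Gzmb encodes granzyme B, a protease that kills target cells. It had 1388, 793.3, 1010, 958.9 and 1287 CPM in coated M numbers 1 to 5, against 547 (M number 1), 605.3 (4) and 669.9 CPM (5) in uncoated cells. All coated libraries exceeded all uncoated ones, and the log2 fold change was 0.86 (95% interval 0.50 to 1.22, adjusted p = 0.0839). Prf1, the pore-forming protein perforin, had 53.7 to 125.2 CPM in coated and 85.4 to 94.1 CPM in uncoated libraries (log2 -0.04, adjusted p = 0.978), and its sign turned without coated M number 2 (0.08). Gzmc and the activation marker Cd69 did not reach the filter. The inhibitory receptor PD-1, encoded by Pdcd1, had 236.5 to 394 CPM in coated and 305.4 to 364.2 CPM in uncoated libraries (log2 -0.05, adjusted p = 0.97; its sign turned without coated M number 2 or 3 or uncoated M number 5, at 0.00 to 0.03). Cd160, another receptor of this group, had 18.5 to 26.6 CPM in coated and 34.5 to 68.9 CPM in uncoated libraries (log2 -1.08, adjusted p = 0.0522).

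Among cytokine genes Csf1 fell. It encodes a growth factor of macrophages and had 10.5, 3.19, 3.53, 6.21 and 6.73 CPM in coated M numbers 1 to 5, against 23 (M number 1), 15.9 (4) and 23.4 CPM (5) in uncoated cells. These are low counts; the groups did not overlap, and Csf1 fell by 1.65 (SE 0.30, adjusted p = 0.0362), with the call lost in 6 of the 8 fits that leave out 1 library (adjusted p up to 0.251). Ifng, the gene of interferon gamma, had 185.6 to 255 CPM in coated and 136.5 to 160.7 CPM in uncoated libraries (log2 0.57, SE 0.13, adjusted p = 0.123), again without overlap. The chemokine genes Ccl3 (log2 0.13, adjusted p = 0.884), Ccl4 (-0.10, adjusted p = 0.964) and Xcl1 (-0.16, adjusted p = 0.947) overlapped between groups. Without uncoated M number 1, Ccl4 had 0.19 and Xcl1 0.20. Of 17 tested cytokine and chemokine genes, 1 fell and 0 rose, with a median of -0.16.

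Of 18 tested class I and antigen processing genes, 1 fell and 0 rose, with a median of -0.20. A negative log2 fold change was found for 16 of them, against 4305 of 9092 over all genes. The one that fell was H2-Q7, a non-classical class I gene of the Qa-2 group. It had 26.6, 31.3, 32.6, 22.2 and 24.7 CPM in coated M numbers 1 to 5, against 49.5 (M number 1), 60.7 (4) and 57.5 CPM (5) in uncoated cells. The groups were far apart relative to their spread and H2-Q7 fell by 1.02 (SE 0.16, adjusted p = 0.0158; called in 3 of the 8 fits that leave out 1 library, adjusted p up to 0.082). H2-Q7 and H2-Q6 are near-identical copies between which 3′ reads could be split, so the value is uncertain for the single gene; H2-Q6 had -0.90 (adjusted p = 0.416). The classical genes H2-K1 (-0.22, adjusted p = 0.555) and H2-D1 (-0.31, adjusted p = 0.257) did not pass.

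Ifi27l2a, an interferon-inducible gene of the ISG12 family, had 43.8, 28.7, 29.1, 32.8 and 43.1 CPM in coated M numbers 1 to 5, against 99.4 (M number 1), 85.5 (4) and 69.7 CPM (5) in uncoated cells. No coated library came near the uncoated range, and Ifi27l2a fell by 1.22 (SE 0.17, adjusted p = 0.00587). Ly6e, an interferon-inducible surface protein, fell by 0.77 (SE 0.14, adjusted p = 0.0443), with 100.7 to 160.1 CPM in coated and 188.2 to 270.7 CPM in uncoated libraries. The Ly6e call was lost in 6 of the 8 fits that leave out 1 library (adjusted p up to 0.338). Ifi27l2a and Ly6e are in none of the function lists and are set here for their known induction by interferon, after they were called. Of 25 tested interferon response genes none passed and the median was -0.16. The interferon gamma-induced GTPase genes Igtp (-0.16, adjusted p = 0.78) and Gbp2 (-0.89, adjusted p = 0.123) did not pass.

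Of the remaining genes that rose, Mt2 encodes a metallothionein, a small protein that binds zinc and copper. It had 78.8, 80.5, 63.5, 71.4 and 96.9 CPM in coated M numbers 1 to 5, against 34.5 (M number 1), 42.1 (4) and 49.3 CPM (5) in uncoated cells. All coated libraries were above all uncoated ones, at a log2 fold change of 0.93 (SE 0.16, adjusted p = 0.0267; called in 3 of the 8 fits that leave out 1 library, adjusted p up to 0.251). Its neighbour Mt1, a related gene whose sharing of reads with Mt2 was not tested, averaged 133 ± 27.8 CPM in coated cells and 72.5 ± 18.4 CPM in uncoated cells (SD, n = 5 and 3; log2 0.90, adjusted p = 0.0878).

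Ttc39c, a tetratricopeptide repeat protein, had 29.4, 31.3, 25.6, 28.8 and 27.8 CPM in coated M numbers 1 to 5, against 13.5 (M number 1), 11.7 (4) and 14.2 CPM (5) in uncoated cells. The coated values were close to one another and all above the uncoated ones (log2 1.13, SE 0.18, adjusted p = 0.0161; called in 3 of the 8 fits that leave out 1 library, adjusted p up to 0.142). Serpine2, a secreted inhibitor of serine proteases such as thrombin, had 83 to 93.6 CPM in coated and 51.5 to 59.5 CPM in uncoated libraries (log2 0.67, SE 0.12, adjusted p = 0.0322; called in 2 of the 8 fits, adjusted p up to 0.251). Crybg1, a protein of the crystallin fold family, had 79.4 to 100.2 CPM in coated and 54.5 to 58.5 CPM in uncoated libraries (log2 0.70, SE 0.12, adjusted p = 0.0322; called in 3 of the 8 fits, adjusted p up to 0.251).

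The remaining genes that fell differed in kind. Sbk1, a serine/threonine kinase, fell by 0.94 (SE 0.18), Rgcc, a cell cycle regulator, by 0.69 (SE 0.14), Ccni, which encodes cyclin I, by 0.60 (SE 0.11), and Npc2, the lysosomal cholesterol carrier, by 0.55 (SE 0.10). Their adjusted p ran from 0.0443 for Sbk1, Ccni and Npc2 to 0.0491 for Rgcc, and each was called only without coated M number 1 among the 8 fits that leave out 1 library. Gm8566 and Gm10232 are processed pseudogenes by the annotation, so their reads could come from a parent gene or another copy. Gm8566 averaged 4.15 ± 1.42 CPM in coated cells and 27.2 ± 5.88 CPM in uncoated cells (SD, n = 5 and 3), a log2 fold change of -2.59 (adjusted p = 0.000474). Within other groups of 1 condition Gm8566 spread widely. It ran from 1.87 to 79.2 CPM in freshly isolated cells, and at DCs120 of day 3 from 6.18 to 47.8 CPM in coated and 5.45 to 71.3 CPM in uncoated libraries. Gm10232 had -1.87 (adjusted p = 0.0322).

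Proliferation and biosynthesis lists gave no call. Of 53 tested S phase genes, 27 were positive and 26 negative, with a median of 0.00, and of 50 genes of G2 and mitosis 33 were negative, with a median of -0.03. The helicase subunit Mcm4 had 235.7 to 269.6 CPM in coated and 250.9 to 310.3 CPM in uncoated libraries (log2 -0.15, adjusted p = 0.805). The proliferation marker Mki67 had 82.4 to 236.4 CPM in coated and 112.4 to 180.3 CPM in uncoated libraries (log2 0.26, 95% interval -0.54 to 1.05, adjusted p = 0.929). Of 36 tested genes of ribosome biogenesis that MYC drives, 32 were positive, against 4787 of 9092 over all genes. Their median was 0.18 and none was called. Nolc1 had 0.26 (adjusted p = 0.43). Myc itself had -0.08 (adjusted p = 0.947; 0.02 without uncoated M number 5).

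Of the 76 cytosolic ribosomal proteins 39 were positive and of the 69 tested genes of oxidative phosphorylation 36, both with a median of 0.00 and 0 called. No gene passed among 35 of glycolysis and hypoxia (median -0.06), 22 of cholesterol synthesis (-0.01), 23 of the unfolded protein response (-0.02), 20 of amino acid stress (0.20) or 11 heat shock genes (0.13). Among 23 tested p53 targets 16 were positive, with a median of 0.19 and none called. Cdkn1a, which encodes the cell cycle inhibitor p21, had 475.7 to 855.2 CPM in coated and 282.2 to 331.6 CPM in uncoated libraries (log2 1.04, SE 0.18, adjusted p = 0.0522). Bax, which opens the mitochondrial membrane in cell death, had 0.19 (adjusted p = 0.861) and the p53-induced RNA-binding protein gene Zmat3 0.51 (adjusted p = 0.356). Lactate dehydrogenase (Ldha) had -0.05 (adjusted p = 0.947), the glucose transporter gene Slc2a3 -0.39 (adjusted p = 0.505), the hypoxia-induced prolyl hydroxylase gene Egln3 0.88 (adjusted p = 0.3) and Crip2 0.85 (adjusted p = 0.177). Among 18 tested effector transcription factors 13 were positive, with a median of 0.21 and none called. Batf3, a factor of activated T cells and of DCs, had 293.9 to 411.6 CPM in coated and 137.9 to 214.4 CPM in uncoated libraries (log2 0.91, adjusted p = 0.0522).

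Transcripts of other cells were measured in the same libraries, since bulk RNA cannot tell fewer cells of a type from less RNA per cell. The 12 DC markers in the table summed to 472.5 to 560.1 CPM in coated and 315.7 to 441.9 CPM in uncoated libraries (exact permutation test, two-sided, p = 0.0179, the smallest that 5 against 3 libraries allow). Batf3, which activated T cells also express, made up most of that sum in the coated libraries. In uncoated ones it gave 137.9 of 315.7 CPM (M number 1), 214.4 of 441.9 (4) and 210.6 of 406.9 (5). Without Batf3, an alternative chosen after the data were seen, the DC markers summed to 133.2 to 188.4 CPM in coated and 177.8 to 227.5 CPM in uncoated libraries, and Cst3 had a log2 fold change of -0.27 (adjusted p = 0.552). The DC genes Itgax, Clec9a, Siglech, Cd209a and Clec10a were at 0 in all 8 libraries. The 10 B cell markers, above, also gave p = 0.0179 (exact permutation). Ighm made up nearly all of that sum, and the sum without Ighm was not tested. The 12 CD8 T cell markers summed to 7811 to 9628 CPM in coated and 9807 to 11235 CPM in uncoated libraries (p = 0.0357, exact permutation). Among these, Trbc2 had a log2 fold change of -0.42 (adjusted p = 0.085, edgeR). Adjusted over the 10 marker sums by Benjamini-Hochberg, the smallest p was 0.0893. Their part in the results was not tested.

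Uncoated M number 4 held 524.6 CPM of MHC class II and 723.9 CPM of erythroid transcripts. The coated libraries had 90.4 to 166.8 CPM (class II) and 18.2 to 73.2 CPM (erythroid), and the other uncoated libraries had at most 140.9 and 119.9 CPM. Mitochondrially encoded transcripts summed to 1003 CPM in coated M number 2 and 605.4 CPM in M number 3, against 84.8 to 156.1 CPM in the other coated and 132.8 to 207.8 CPM in the uncoated libraries. Macrophage (at most 5.38 CPM coated and 24.1 CPM uncoated), granulocyte (at most 1.28 and 2.07 CPM), NK cell (at most 6.65 and 8.96 CPM) and CD4 T cell markers (at most 12.4 and 7.12 CPM) were low. Without uncoated M number 4, 9 genes were called, 7 of them among the 22: Tnfrsf13b, Rasgrp2, Bcl2l11, Itgb7, Ifi27l2a, Ly6e and Gm8566.

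**Figure D4:**
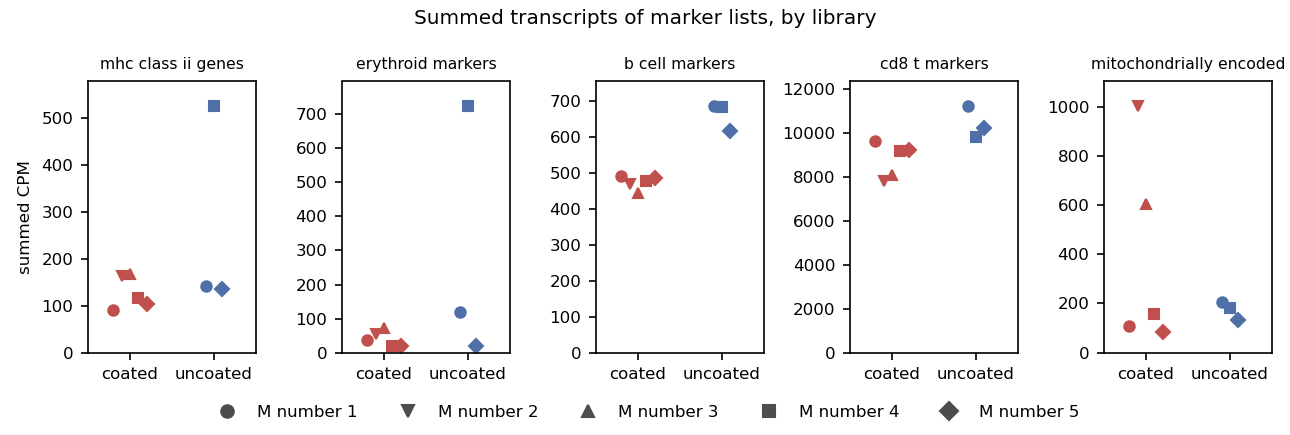
Summed CPM (y axis, from 0) of 5 marker lists in the 5 coated (red, left) and 3 uncoated (blue, right) libraries, with the shape giving the M number. Uncoated M number 4 stands apart for MHC class II (524.6 CPM) and erythroid genes (723.9 CPM), and coated M numbers 2 and 3 for mitochondrially encoded genes.

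The same coating was compared in the DC libraries titled DCs120 of the same day. There 8 of 8779 tested genes were called, all higher (0.0911%). Coated DCs120 M number 4 held 382924 counts, fewer than any DCs30 library. Of the 22 genes, Ttc39c rose there too, by 1.55 (SE 0.19, adjusted p = 0.0058), as did Serpine2, by 1.57 (SE 0.21, adjusted p = 0.0171). Cd80 (log2 1.13, adjusted p = 0.0258) and Cdkn1a (1.59, adjusted p = 0.0069), which missed the threshold at DCs30, were called. For Rasgrp2 the effect was -0.63 (SE 0.26, adjusted p = 0.434), for Itgb7 -0.54 (SE 0.21, adjusted p = 0.413) and for Tnfrsf13b 0.43 (SE 0.15, adjusted p = 0.35).

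The difference between the 2 coating effects (DCs30 minus DCs120) was tested over 9631 genes, and edgeR called 0 (0%). An unadjusted p under 0.05 was found for 718 genes. DESeq2's Wald test also called 0, but a fit with M number as a replicate block called 60. Lsp1 had a difference of -0.80 (95% interval -1.16 to -0.44, adjusted p = 0.228), with an effect of 0.04 at DCs120. The difference for Rasgrp2 was -1.42 (95% interval -2.18 to -0.66, adjusted p = 0.42), and that for Tnfrsf13b 0.58 (0.20 to 0.97, adjusted p = 0.572). Gzmb had 0.24 (-0.30 to 0.79, adjusted p = 0.846) and Ifng -0.01 (-0.56 to 0.53, adjusted p = 0.997), an estimate whose sign turned in some fits that leave out 1 library (-0.15 to 0.16). With intervals this wide, the 2 effects were not shown to be alike.

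Levels at DCs120 also differed from those at DCs30 in ways that were described and not tested here. Gzmb averaged 1087 ± 244.4 CPM in coated and 607.4 ± 61.5 CPM in uncoated libraries at DCs30 (SD, n = 5 and 3). At DCs120 it averaged 4219 ± 1144 CPM in coated and 2830 ± 465.9 CPM in uncoated libraries (n = 4 each). Rasgrp2 averaged 7.26 ± 1.3 CPM in the coated DCs30 cells, the lowest of the 11 groups of the series, and 28.5 ± 9.73 CPM in the coated DCs120 cells, against 339.8 ± 35.4 CPM in freshly isolated cells (n = 9). Itgb7 averaged 35.3 ± 8.17 CPM in coated DCs30 cells, also the lowest of the 11, against 529.3 ± 56.7 CPM in freshly isolated cells. The next group up in the order of means was the coated DCs120 cells for both genes: its lowest library, at 16.4 CPM, lay above all coated DCs30 libraries for Rasgrp2, but at 41.7 CPM it overlapped them for Itgb7.

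**Figure D5:**
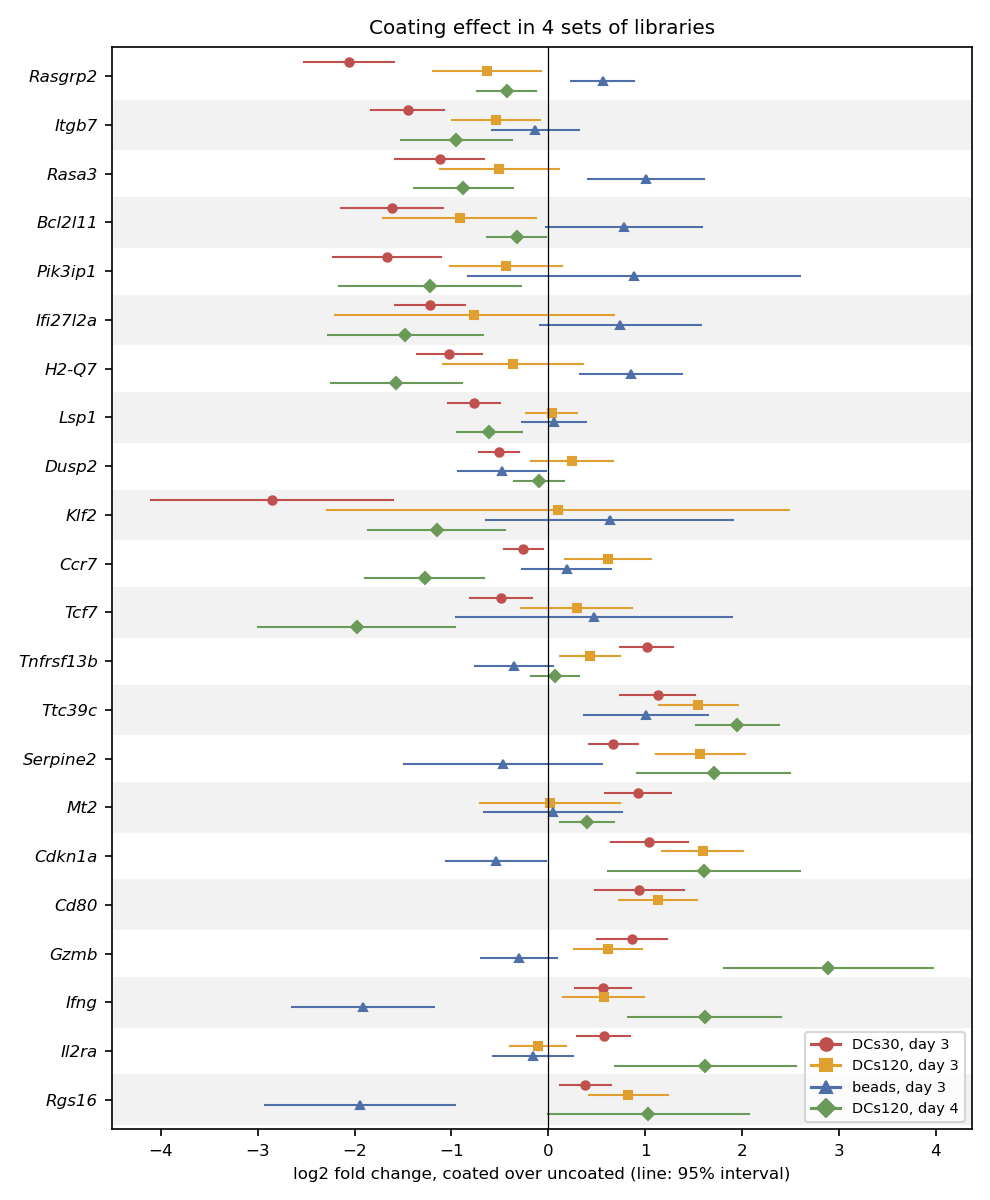
Log2 fold change, coated over uncoated (x axis, line: 95% interval), for 22 genes (y axis) in DC-activated cells titled DCs30 (circles) and DCs120 (squares) at day 3, bead-activated cells at day 3 (triangles) and DC-activated cells titled DCs120 at day 4 (diamonds). Rasgrp2, Rasa3 and H2-Q7 lie left of 0 at DCs30 and right of 0 in bead-activated cells, and Ifng and Rgs16 the other way; a missing marker is a gene that did not reach the filter.

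In bead-activated cells of the same day, which met antibodies against CD3 and CD28 in place of DCs, the coating gave 9 calls of 8985 genes (0.1%), 4 higher (0.0445%) and 5 lower (0.0556%). The difference of the 2 effects (DCs30 minus beads) was called for 9 of 9727 genes (0.0925%), 3 higher (0.0308%) and 6 lower (0.0617%) at DCs30. The higher ones were Tnfrsf13b (difference 1.36, SE 0.21, adjusted p = 0.00493), Ifng (2.47, SE 0.34, adjusted p = 0.00241) and Rgs16 (2.31, SE 0.37, adjusted p = 0.00731), a brake on G protein signalling. The lower ones were Rasgrp2 (-2.62, SE 0.25, adjusted p = 6.4e-06), Rasa3 (-2.13, SE 0.37, adjusted p = 0.0203), H2-Q7 (-1.89, SE 0.30, adjusted p = 0.00795), Il16 (-1.42, SE 0.22, adjusted p = 0.00637), Pglyrp1 (-2.92, SE 0.56, adjusted p = 0.0386) and Gm8566. Ifng, Rgs16, Il16 and Pglyrp1 were not called at DCs30 alone. There edgeR gave Rgs16 0.38 (adjusted p = 0.357), Il16 -0.61 (adjusted p = 0.123) and Pglyrp1 -1.33 (adjusted p = 0.348). Pglyrp1 held only 1 to 21 counts per DCs30 library. Rasgrp2 averaged 210.4 ± 32.5 CPM in coated and 137.2 ± 18.3 CPM in uncoated bead-activated cells (SD, n = 5 and 3). In bead-activated cells Ifng averaged 7.84 ± 3.81 CPM in coated and 28.6 ± 1.43 CPM in uncoated libraries. The number of differences called ran from 4 without uncoated bead M number 2 to 21 without coated bead M number 2, and was 17 without coated bead M number 4.

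In DC-activated cells of day 4, titled DCs120, the coating called 1738 of 9159 genes (19%), 893 higher (9.75%) and 845 lower (9.23%). These libraries differ from the DCs30 ones in both day and title number, which cannot be told apart, so the values are set side by side. Genes called as higher in both sets were Ttc39c (1.13 at DCs30 and 1.95 at day 4), Serpine2 (0.67 and 1.71), Crybg1 (0.70 and 0.65) and Mt2 (0.93 and 0.40). Rasgrp2 (-2.05 and -0.43), Itgb7 (-1.45 and -0.95), Rasa3 (-1.12 and -0.88), H2-Q7 (-1.02 and -1.57), Ifi27l2a (-1.22 and -1.48), Lsp1 (-0.77 and -0.61), Ly6e (-0.77 and -0.63), Rgcc (-0.69 and -0.86) and Npc2 (-0.55 and -0.76) were called as lower in both. Pik3ip1 (-1.67 and -1.22), Gm8566 (-2.59 and -0.96), Ccni (-0.60 and -0.33), Bcl2l11 (-1.61 and -0.32) and Dusp2 (-0.51 and -0.10) were lower in both without a call at day 4. Sbk1 had -0.94 at DCs30 and 0.14 at day 4, and Gm10232 did not reach the filter at day 4. Csf1 fell by 1.65 at DCs30 and rose by 1.15 at day 4 (SE 0.22, adjusted p = 0.0034). Tnfrsf13b had 0.07 at day 4 (adjusted p = 0.725).

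The authors' deposited table holds 1 comparison of coated with uncoated DC-activated cells of day 3, which does not separate DCs30 from DCs120. Of the 41 genes with an adjusted p under 0.05 in the authors' deposited table, 39 were tested here, and 7 of them were among the 22 with the same direction, or 7 of 41 and 7 of 22. The authors' deposited table gives Rasgrp2 a log2 fold change of -1.26 (adjusted p = 4.38e-05), Tnfrsf13b 0.73 (adjusted p = 5.75e-06) and Itgb7 -0.97 (adjusted p = 0.000873). Some genes not called at DCs30 pass in the authors' deposited table. These include Il16 (-0.67, adjusted p = 2.87e-05), Pglyrp1 (-1.24, adjusted p = 0.0244), Cdkn1a (1.30, adjusted p = 0.0366), Crip2 (1.08, adjusted p = 0.0374), Slc2a3 (-0.83, adjusted p = 0.0411) and Icam1 (0.65, adjusted p = 0.0475). Mt2 has 0.15 (adjusted p = 1) in the authors' deposited table. The libraries are shared between that table and the values above, so the 2 are not independent.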

How the data were processed

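RNA of 52 libraries was measured by bulk MARS-seq, which reads the 3′ ends of transcripts. Per the submitters' processing notes, bcl2fastq, cutadapt, STAR 2.4.2a, HTSeq and DESeq2 were used with mm10. Whether copies of 1 molecule were collapsed, and whether counting used the strand, is not given in the sources used here, so overlapping genes cannot be told apart. The authors deposited whole-number counts of 14626 genes, with no normalization, in 1 table. The authors' deposited log2 fold changes and adjusted p-values come from the same table and are named where used. Every gene reaches 6 counts in some library, so low genes were removed under a rule not given.

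From these counts, the 5 coated and 3 uncoated DCs30 libraries of day 3 were fitted alone. Genes passed filterByExpr (minimum count 10, minimum total 15) and were scaled by TMM. Tests were two-sided quasi-likelihood tests with robust fitting (edgeR 4.0.16, R 4.3.3), adjusted after Benjamini and Hochberg over every gene of the fit, at a threshold of 0.05. Differences of coating effects were contrasts over 4 groups. Printed CPM use TMM factors over all 52 libraries. SE is the fold change divided by the root of F. Sums of 10 marker lists were compared by an exact permutation test over 56 splits. Alternatives were size factors of DESeq2 1.42.0 and its Wald test, no filter, M number as a block, all DC libraries of day 3 in 1 fit, M numbers 1, 4 and 5 alone, leaving out each library, and, added after the data were seen, a fit with dispersions estimated first. In simulated counts the test recovered 60.6% of 2-fold and 21.6% of 1.5-fold changes in the DCs30 comparison, with 33% and 5% for the difference from DCs120 and 13% and 2.02% for that from beads. For DCs30 the simulated counts held 94 tested genes changed 2-fold and 97 changed 1.5-fold, and 82 genes were called. The data gave 22 calls, so the adjustment is stricter there and recovery in the data may be lower.

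The members, the 24 function lists and 10 marker lists were chosen with earlier results of these data known. Named were all called genes, a fixed set of adhesion, effector, naive and proliferation genes, the 2 members of each list with the smallest p, and the called differences (up to 6 in each direction). The rule leaves out unnamed gene models; the 2 called ones, and some further list members, are named after their values were seen. Of the 14626 genes, 14304 were matched by symbol to 1 gene of GENCODE vM21. Promoter windows are RefSeq's, in GRCm38.p6. Some members of the lists are not reported here.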

Additional observations from a re-analysis of the deposited data

Results flagged for a closer look

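Xcl1, a chemokine gene of activated CD8+ T cells, had 523.6 CPM in coated M number 1, far from the other 4 coated libraries (307.1 to 343 CPM). The uncoated library with the same M number was also the highest of its group (580.9 CPM). Of 114 sets of 5 coated libraries examined, 1 held a library apart, where chance gives about 1 in 20.

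The coating effect differed between DCs30 and bead-activated cells of day 3, by a test of the difference itself, for 9 genes. The differences on the log2 scale were 1.36 for Tnfrsf13b, 2.47 for Ifng and 2.31 for Rgs16. They were -2.62 for Rasgrp2, -2.13 for Rasa3, -1.89 for H2-Q7, -2.92 for Pglyrp1, -1.42 for Il16 and -3.77 for the pseudogene Gm8566. Ifng, Rgs16, Il16 and Pglyrp1 were not called at DCs30 alone. Activation by DCs or by beads and interleukin 2 separates the 2 sets, and the sets also differ in every condition that goes with each. Tnfrsf13b, Rasgrp2, Ifng and Il16 were called in all 21 alternatives, while Gm8566 was not called in 12 of them, Pglyrp1 in 10, Rasa3 in 4, and H2-Q7 and Rgs16 in 1 each.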

How the results depend on the processing

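The 22 calls at DCs30 were 46 with DESeq2's Wald test and 142 with M number as a replicate block, all 22 among them in both, and 3 to 40 when each library was left out. Size factors (23), no filter (16), dispersions estimated first (20), all DC libraries of day 3 in 1 fit (20, with 13 of the 22) and M numbers 1, 4 and 5 alone (22, with 15) gave counts within 1.5 times. M numbers were not taken to pair the libraries in the main fit. Deviations from the group means correlated at 0.43 for M number 1, -0.07 for 4 and 0.14 for 5. These values cannot settle whether M numbers pair the libraries, since libraries of unlike M number were not set beside them. The 0 differences from DCs120 were 60 with the replicate block and 0 to 1 when libraries were left out. The 9 differences from beads were 53 with the Wald test, 46 with the replicate block and 4 to 21 when libraries were left out. Rasgrp2 and Itgb7 were called in all 15 alternatives, and 20 of the 22 missed at least 1; Ifi27l2a (adjusted p = 0.56) and Gm8566 (0.51) did so with all DC libraries in 1 fit.

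Signs turned only where no call was made. With the replicate block, log2 fold changes were -0.074 for Itgal, 0.15 for Prf1, 0.12 for Pdcd1, 0.020 for Myc, 0.017 for Ldha, -0.49 for mt-Cytb and -0.62 for mt-Nd1. With M numbers 1, 4 and 5 alone they were -0.077, 0.16, 0.12, 0.010, 0.015, -0.44 and -0.60 for the same genes. With 1 library left out, the ranges were -0.061 to 0.081 (Itgal), -0.22 to 0.084 (Prf1), -0.13 to 0.027 (Pdcd1), -0.29 to 0.19 (Ccl4), -0.34 to 0.20 (Xcl1), -0.93 to 0.14 (S1pr1) and -0.19 to 0.017 (Myc). For Ifng the difference from DCs120 ran from -0.15 to 0.16, and was 0.0092 with the Wald test. The cause of these changes was not tested.

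With 3 uncoated libraries, changes under 2-fold were often missed in simulated counts, and low genes such as Csf1 rest on few counts.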
